A study of Mus musculus with 32 samples.

Results

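The transcripts of the dystrophin glycoprotein complex were examined through 8 of its genes: *Dmd*, *Utrn*, *Dag1*, *Sgca*, *Sgcb*, *Sgcd*, *Dtna* and *Sspn*. The genes were taken as a fixed list of symbols, and all 8 were found among the 54838 genes of the table. RNA came from skeletal muscle, named in the study as tibialis anterior, of C57BL6/J mice that were either WT or *Mtm1* KO. Muscle was taken at P1, P14, P21 and P35, with n=4 libraries per genotype and age and 32 libraries in all. The KO allele carries a deletion of exon 4 of *Mtm1* in every cell of the animal, which shifts the reading frame, and *Mtm1* encodes myotubularin, a phosphatase of membrane lipids. No group was treated, and WT and KO mice shared the background strain. The labels number the replicates without saying that each was a separate mouse, so *P*-values measure the spread between these libraries, which may be technical. The design asks whether the complex differs at the RNA level between genotypes at any age, and how its genes change as the muscle matures.

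The complex joins the actin skeleton inside a muscle fiber to the laminin matrix outside it, and so protects the membrane during contraction. Dystrophin binds actin and beta-dystroglycan, alpha-dystroglycan binds laminin, the sarcoglycans and sarcospan form a subcomplex in the membrane, and dystrobrevin and the syntrophins hold signaling proteins on the cytoplasmic side. Loss of dystrophin causes Duchenne muscular dystrophy, loss of a sarcoglycan causes a limb-girdle dystrophy, and utrophin is the paralogue of dystrophin that is widespread in immature fibers and kept at the neuromuscular junction of mature ones.

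Libraries held between 49321019 and 85631391 counts over all genes, and the members between 634 and 55112 counts in any library, so counting error was small beside the spread between libraries. Levels are given as CPM, the counts scaled to a common library size after TMM normalization, which corrects library sizes for differences in composition. The 8 markers of mature muscle fibers summed to between 15704 and 193940 CPM and were thus abundant in every library, as the labelled tissue requires. Markers of keratinocytes (*Krt5*, *Krt14* and *Krt10*) summed to between 877 and 3319 CPM at P1 and to between 2.46 and 5.88 CPM at the 3 later ages, and their part in the changes after P1 was not tested. Among KO libraries, replicate 4 at P1 had the lowest sums of mature fiber markers (15704 CPM, against 22980 to 31655 in the other 3) and of immature fiber markers (7390.5 CPM, against 17166 to 20242). Replicate 1 at P21 was high for long transcripts, with a median deviation of 0.19 on the log2 scale from its group over 623 genes whose longest transcript exceeded 8000 bases. Next furthest from 0 by this measure were KO replicate 4 at P1 (-0.17) and WT replicate 2 at P35 (-0.13). KO replicate 2 at P35 (0.12) and WT replicate 2 at P21 (-0.11) followed.

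*Mtm1* itself separated the labels at every age. At P1 its level was 5.26 to 6.02 CPM in the WT libraries, and 2.32 to 3.91 CPM was found in KO (log2 -0.98, SE 0.17, edgeR adjusted *P*=0.0668). This passed with DESeq2 (adjusted *P*=7.75e-06), with all 32 libraries in 1 fit (adjusted *P*=1.41e-04) and without KO replicate 4 (-1.19, adjusted *P*=0.0034). Leaving out any other single library did not make it pass (edgeR adjusted *P* up to 0.221). From P14 onwards WT libraries lay between 18.9 and 24.9 CPM and KO libraries between 2.64 and 4.51 CPM, with log2 fold changes of -2.34, -2.71 and -2.56 in turn (adjusted *P* from 1.83e-06 to 8.13e-06).

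The start regions of members whose level differed in its course with age are printed here, as the 250 bases before a RefSeq start (GRCm38.p6), 5′ to 3′ on the gene's own strand. Capitals mark E-boxes (CANNTG, which reads as the same pattern on both strands) and the CArG box. A window is shown only where it shares no base with a GENCODE exon, which held for 6 of the 10 windows listed for 7 members, and that of *Utrn* is left out. *Dmd* has 2 such starts far apart, one at the head of the gene and one deep within it, and its count pools transcripts from both.
*Dmd*, first start, chrX:82948620-82948869, plus strand: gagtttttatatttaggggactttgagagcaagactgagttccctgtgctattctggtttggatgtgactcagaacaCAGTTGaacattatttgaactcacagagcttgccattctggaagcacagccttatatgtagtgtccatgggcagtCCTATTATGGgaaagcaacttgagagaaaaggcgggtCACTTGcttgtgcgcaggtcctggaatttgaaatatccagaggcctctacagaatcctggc
*Dmd*, internal start, chrX:85048045-85048294, plus strand: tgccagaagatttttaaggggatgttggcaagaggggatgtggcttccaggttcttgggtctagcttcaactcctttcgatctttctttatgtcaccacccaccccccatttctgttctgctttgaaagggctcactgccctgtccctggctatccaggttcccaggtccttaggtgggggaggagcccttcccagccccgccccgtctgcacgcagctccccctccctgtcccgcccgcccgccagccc
*Dag1*, chr9:108263959-108264208, minus strand: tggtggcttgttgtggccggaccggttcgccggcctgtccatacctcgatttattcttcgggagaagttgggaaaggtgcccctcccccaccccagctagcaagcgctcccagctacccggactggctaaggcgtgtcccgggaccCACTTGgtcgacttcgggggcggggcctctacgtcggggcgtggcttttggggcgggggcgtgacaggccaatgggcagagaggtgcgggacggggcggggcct
*Sgca*, chr11:94976328-94976577, minus strand: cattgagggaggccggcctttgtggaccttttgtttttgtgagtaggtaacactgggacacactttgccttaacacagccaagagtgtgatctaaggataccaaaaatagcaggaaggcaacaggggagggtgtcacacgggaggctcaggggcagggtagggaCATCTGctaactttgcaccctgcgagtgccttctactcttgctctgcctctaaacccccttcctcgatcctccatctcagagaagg
*Sspn*, chr6:145933872-145934121, plus strand: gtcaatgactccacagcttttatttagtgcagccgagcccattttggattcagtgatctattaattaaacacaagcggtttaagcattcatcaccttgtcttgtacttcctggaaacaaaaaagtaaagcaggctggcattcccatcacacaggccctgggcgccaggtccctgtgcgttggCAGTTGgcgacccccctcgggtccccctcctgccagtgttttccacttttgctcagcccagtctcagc

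The first *Dmd* window held E-boxes 173 and 61 bases before the start and a CArG box 98 bases before it. The internal *Dmd* window held neither. *Dag1*, *Sgca* and *Sspn* held 1 E-box each, at 104, 86 and 68 bases before their starts. The *Utrn* window, which is not printed, held 7 E-boxes and no CArG box. Both the *Utrn* and the *Sspn* window lie inside the annotated gene, and so precede internal starts rather than the head of the gene. Of all 32851 RefSeq windows of this length, 66.2% held an E-box and 1.47% a CArG box. The matches are a description of the letters in these windows and not evidence of a bound factor.

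No member was called in *Mtm1* KO versus WT muscle at any age. A gene was called a DEG at an edgeR adjusted *P*-value under 0.01 and a fold over 1.5, and 0 of 8 members passed at P1, P14, P21 and P35, against 0.0442%, 0.0318%, 4.67% and 16% of all genes tested. With the fold dropped from the rule, again 0 of 8 members passed at each age, against 0.0442%, 0.0381%, 8.13% and 24.5% of all genes. An unadjusted *P*-value under 0.05 was reached by 0 members at P1 and P14, by 2 at P21 (*Sgca* and *Sgcd*) and by 1 at P35 (*Dtna*), beside 1978 of 18100, 1072 of 15728, 5329 of 15179 and 7848 of 15595 genes at the 4 ages. DESeq2 called 0 members at each age by the full rule, and without the fold it passed *Dtna* at P35. Genotypes were free of overlap in 0 members at P1 and P14, in *Sgca* at P21, and in *Sgca*, *Dtna* and *Sspn* at P35, all lower in KO, against 8.62%, 4.84%, 24.7% and 39.6% of all genes. The median absolute log2 fold change of the 8 members was 0.16 at P21 and 0.16 at P35, beside 0.21 and 0.34 over all genes.

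**Figure D1:**
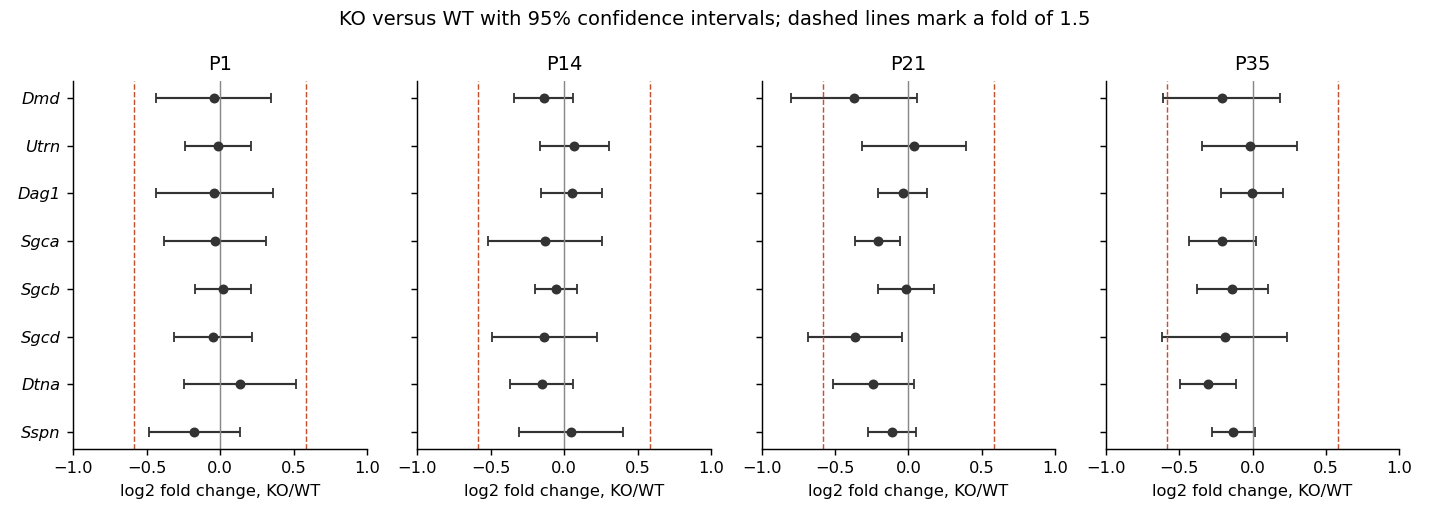
Log2 fold change of each member in KO versus WT (x axis) at the 4 ages, with 95% confidence intervals from the edgeR fit of 8 libraries per age (n=4 per genotype). Every point lies within the dashed lines at a fold of 1.5, and the intervals reach from -0.80 (*Dmd* at P21) to 0.51 (*Dtna* at P1).

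The direction at the later ages depended on the scaling. With TMM, 7 members at P21 and all 8 at P35 had log2 fold changes below 0 in KO, whereas with library totals alone all 8 at P35 were above 0. Library totals also moved the median of all genes to 0.20 at P21 and 0.44 at P35, from 0.01 and 0.04 with TMM. With library totals, *Dag1* (0.40, adjusted *P*=0.00746) and *Sspn* (0.27, adjusted *P*=0.00645) passed at P35, both by less than that shift. The sum of the mature fiber markers was 114800 to 159750 CPM in WT and 77096 to 97812 CPM in KO at P35, the sum of the immature fiber markers 29.8 to 39.2 CPM in WT and 163 to 266 CPM in KO, and mitochondrially encoded genes took 12.4% to 17.9% of counts in WT and 10.3% to 10.5% in KO. Their part in the members' values was not tested. In whole muscle, fewer cells of a type and less RNA per cell cannot be told apart.

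Dystrophin and its paralogue were considered first. *Dmd* (chrX:82948870-85206141, GRCm38, as for all loci here) encodes dystrophin, the long rod that ties actin to the membrane complex. In WT its level was 93.2, 119, 92.4 and 91.8 CPM at P1 and rose 2.08-fold to 196, 219, 223 and 187 CPM at P14 (log2 1.06, SE 0.19, edgeR adjusted *P*=1.24e-05). The 2 ages did not overlap. KO libraries rose 1.97-fold over the same step, from 97.6, 101, 118 and 63.9 CPM to 165, 179, 208 and 196 CPM (adjusted *P*=3.49e-05).

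At P21 *Dmd* stood at 329, 213, 255 and 336 CPM in WT, beside 305, 179, 199 and 185 CPM in KO. Apart from KO replicate 1, the KO libraries lay below every WT library. The log2 fold change was -0.37 (SE 0.19, 95% confidence interval -0.80 to 0.06, adjusted *P*=0.197), the furthest from 0 of any member at any age. Without KO replicate 1 it was -0.57 and the adjusted *P*-value was 0.0321, short of the threshold of 0.01. Over all fits without 1 library it ranged from -0.57 to -0.28, with edgeR adjusted *P* up to 0.381. KO replicate 1 had the highest values for long transcripts at P21. At P35 *Dmd* stood at 225, 155, 188 and 217 CPM in WT, beside 176, 221, 136 and 135 CPM in KO (log2 -0.21, SE 0.18, adjusted *P*=0.372), and the groups overlapped. Without KO replicate 2, the highest of its group and also high for long transcripts (0.12), the difference was -0.38 (adjusted *P*=0.0652). It was -0.14 without KO replicate 3 or 4 or WT replicate 1.

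*Utrn* (chr10:12382188-12869365), which encodes utrophin, gave no call between genotypes. Its log2 fold changes in KO versus WT were -0.01, 0.07, 0.04 and -0.02 at the 4 ages, with 95% confidence intervals within -0.34 and 0.39. The sign at P21 turned without KO replicate 1 (-0.09), which held 113 CPM, or without WT replicate 2 (-0.07). WT libraries held 112, 118, 98.6 and 101 CPM at P1 and 67.6, 58.3, 86.3 and 71.8 CPM at P35, and KO libraries 116, 113, 105 and 88.7 CPM at P1 and 64.1, 82.9, 72.1 and 56.3 CPM at P35. The P35 libraries lay below the P1 libraries in both genotypes, although no single step passed the test (WT log2 -0.26, -0.04 and -0.30, adjusted *P* of 0.101, 0.888 and 0.142). With library totals in place of TMM, *Utrn* was called lower at P14 than at P1 in both genotypes (log2 -1.03 in WT and -0.89 in KO), beside a median of all genes of -0.87 and -0.81.

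The count ratio of *Utrn* to *Dmd* within a library does not depend on scaling between libraries. It averaged 1.09 in WT and 1.14 in KO at P1, and 0.437 and 0.511 at P14. At P21 it averaged 0.316 in WT and 0.418 in KO, and at P35 0.366 and 0.422. The ratio was thus higher on average in KO at every age, but the genotypes overlapped at each. On the log2 scale the difference was 0.06, 0.21, 0.43 and 0.21 at the 4 ages, with exact permutation *P*=0.714, 0.257, 0.0857 and 0.314 (two-sided, 70 assignments, smallest possible 0.0286, adjusted *P* of 0.343 at P21 over the 4 ages). At P14 same-numbered libraries deviated together, although the labels state no pairing. Taken as pairs, the ratio was higher in KO in 4 of 4, and a paired exact permutation test gave *P*=0.125, the smallest that 4 pairs allow. Replicate 4 of KO at P1 set the sign at that age, since the difference was -0.04 without it.

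**Figure D2:**
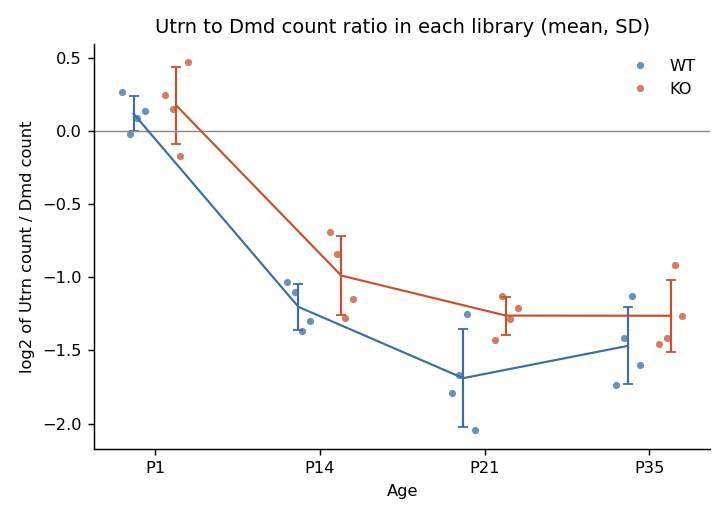
Log2 of the *Utrn* count over the *Dmd* count (y axis) by age (x axis), with 1 point per library, and lines joining the means with SD bars (n=4). The ratio is near 1 (log2 of 0) at P1 and below it in all libraries from P14 on, and KO means lie above WT means with overlapping points.

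Dystroglycan followed another course. *Dag1* (chr9:108204634-108263958) encodes the precursor that is cut into alpha-dystroglycan, the laminin receptor, and beta-dystroglycan, which spans the membrane. Its WT level averaged 402 ± 32.7 CPM at P1 and 496 ± 46.8 CPM at P14 (SD, n=4), then 493 ± 33.2 and 347 ± 28.3 CPM at P21 and P35. The step from P21 to P35 passed the adjusted *P*-value without reaching 1.5-fold in either genotype (WT log2 -0.51, adjusted *P*=0.00478, and KO log2 -0.49, adjusted *P*=0.00400), and the libraries of the 2 ages did not overlap in either. KO libraries at P35 held 329, 386, 329 and 315 CPM, beside 388, 335, 323 and 343 CPM in WT. The log2 fold change between genotypes lay between -0.04 and 0.05 at all 4 ages, with 95% confidence intervals at P35 of -0.22 to 0.21.

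From P1 to P14 the direction of *Dag1* turned with the scaling. TMM gave a log2 change of 0.31 in WT (adjusted *P*=0.0258) and 0.41 in KO (adjusted *P*=0.00366), and library totals gave -0.46 and -0.31. KO replicate 4 at P1 held 248 CPM, where the other 3 KO libraries held 414 to 455 CPM.

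The sarcoglycans differed among themselves. *Sgca* (chr11:94962791-94976327) encodes alpha-sarcoglycan, which is specific to striated muscle. It had the largest change with age of the 8 members, 3.19-fold higher at P14 than at P1 in WT (35.8, 43.6, 39.8 and 42.2 CPM to 116, 106, 133 and 160 CPM, log2 1.67, SE 0.15, adjusted *P*=5.97e-11) and 3.02-fold in KO. It was also the member called higher at P14 under library totals in both genotypes (log2 0.88 in WT and 0.85 in KO).

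At P21 *Sgca* held 183, 175, 150 and 156 CPM in WT, beside 147, 143, 137 and 143 CPM in KO, so that every KO library lay below every WT library. The log2 fold change was -0.21 (SE 0.07, adjusted *P*=0.0582) and did not pass. The P35 libraries, at 180, 148, 140 and 139 CPM in WT, beside 134, 115, 131 and 139 CPM in KO, were also apart, although the highest KO and the lowest WT library both rounded to 139 CPM (log2 -0.21, SE 0.10, adjusted *P*=0.133).

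*Sgcb* (chr5:73632749-73647790) encodes beta-sarcoglycan, which is also made outside muscle. In WT it rose 2.16-fold from 99.8, 123, 101 and 104 CPM at P1 to 221, 229, 244 and 230 CPM at P14 (log2 1.11, SE 0.09, adjusted *P*=1.99e-11), and 2.08-fold in KO. After P14 no step passed in either genotype, and means stayed between 223 and 256 CPM. Its log2 fold change in KO versus WT lay between -0.14 and 0.02, with adjusted *P* from 0.327 at P35 to 0.960 at P14.

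*Sgcd* (chr11:46896253-47988969), the gene of delta-sarcoglycan, was the member with the lowest level, between 12.7 and 36.0 CPM over all 32 libraries. Unlike *Sgca* and *Sgcb* it gave no call from P1 to P14 with TMM (WT log2 -0.03, adjusted *P*=0.893). In WT it rose 1.74-fold from 18.4, 19.6, 19.5 and 13.2 CPM at P14 to 31.7, 24.5, 31.1 and 36.0 CPM at P21 (log2 0.80, SE 0.17, adjusted *P*=0.00115). The call was lost with library totals (0.62, adjusted *P*=0.0123).

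It then fell in WT to 23.0, 15.8, 16.3 and 21.5 CPM at P35 (log2 -0.69, SE 0.17, adjusted *P*=0.00649). This last call was lost when any of 5 of the 8 WT libraries was left out (P21 replicates 1, 3 and 4 and P35 replicates 2 and 3), with adjusted *P* up to 0.0306. In KO the same steps were 0.56 (adjusted *P*=0.0155) and -0.53 (adjusted *P*=0.0234), neither called. Without P14 replicate 3 the first passed in KO (0.67, adjusted *P*=0.00904), and without P35 replicate 2 so did the second (-0.72, adjusted *P*=0.00252). The difference between genotypes in either step was not called (log2 -0.24 and 0.16, interaction adjusted *P*=0.759 and 0.787).

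Between genotypes *Sgcd* was lowest relative to WT at P21, where KO libraries held 30.4, 22.4, 20.7 and 21.8 CPM. The 3 KO libraries other than replicate 1 lay below every WT library, as for *Dmd*. The log2 fold change was -0.36 (SE 0.14, 95% confidence interval -0.68 to -0.05, adjusted *P*=0.0980), and -0.49 without KO replicate 1 (adjusted *P*=0.0259). Over all fits without 1 library it ranged from -0.49 to -0.28, with edgeR adjusted *P* up to 0.208.

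Sarcospan, encoded by *Sspn* (chr6:145931641-145965223), is a small membrane protein that holds the sarcoglycans against dystroglycan. Its level was highest at P14 in both genotypes. WT libraries rose 2.41-fold from 116, 140, 125 and 124 CPM at P1 to 328, 348, 312 and 231 CPM at P14 (log2 1.27, SE 0.12, adjusted *P*=3.96e-10), and KO libraries 2.84-fold, from 101, 119, 138 and 85.4 CPM to 333, 342, 344 and 238 CPM.

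From P14 to P21 *Sspn* fell in KO to 200, 212, 195 and 211 CPM (log2 -0.62, SE 0.12, adjusted *P*=4.46e-04). In WT it fell to 216, 207, 221 and 248 CPM, past the adjusted *P*-value but short of 1.5-fold (log2 -0.45, adjusted *P*=0.00733), and with library totals this WT step was called as well (-0.64, adjusted *P*=0.00131). The KO change also came short of 1.5-fold without P14 replicate 2 (-0.58) or 3 (-0.58), and the 2 genotypes were not shown to differ in this step (interaction log2 -0.17, adjusted *P*=0.760). Replicate 4 was the lowest library at P14 in both genotypes.

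At P35 the *Sspn* libraries were tight and did not overlap. WT libraries held 209, 211, 219 and 213 CPM. KO libraries held 203, 186, 193 and 185 CPM (log2 -0.13, SE 0.06, 95% confidence interval -0.28 to 0.01, adjusted *P*=0.131). *Sspn* shares 69 exon bases with *Sspnos* on the opposite strand, and the use of strand in counting is not given in the sources used here.

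Alpha-dystrobrevin, the product of *Dtna*, binds dystrophin and the syntrophins beneath the membrane. It came nearest to the threshold between genotypes. At P35 WT libraries held 192, 155, 155 and 177 CPM and KO libraries 138, 132, 136 and 136 CPM. All 4 KO libraries lay below all 4 WT libraries, and they were closer together (SD 2.50 CPM, against 18.1 CPM in WT). The log2 fold change was -0.30 (SE 0.08, 95% confidence interval -0.49 to -0.11, edgeR adjusted *P*=0.0183), and the adjusted *P*-value ranged from 0.0152 to 0.0516 when single libraries were left out. DESeq2 gave -0.33 with adjusted *P*=0.00353, so the pass depended on the tool, while the fold of 1.5 lay outside the interval.

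Over age, *Dtna* rose 2.32-fold from P1 to P14 in WT, from a mean of 57.1 ± 6.59 CPM to 133 ± 8.98 CPM (log2 1.22, SE 0.14, adjusted *P*=8.75e-09), and 1.92-fold in KO. The WT mean at P21 was 198 ± 36.5 CPM (SD, n=4). That step, 1.49-fold, passed the adjusted *P*-value of 0.01 (log2 0.58, adjusted *P*=0.00269) but missed the fold threshold of 0.585 by a narrow margin, and DESeq2 and 4 of the 8 fits without 1 library called it. KO libraries gave 0.48 (adjusted *P*=0.0104). *Dtna* shares 90 exon bases with the antisense gene *Gm47898*.

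**Figure D3:**
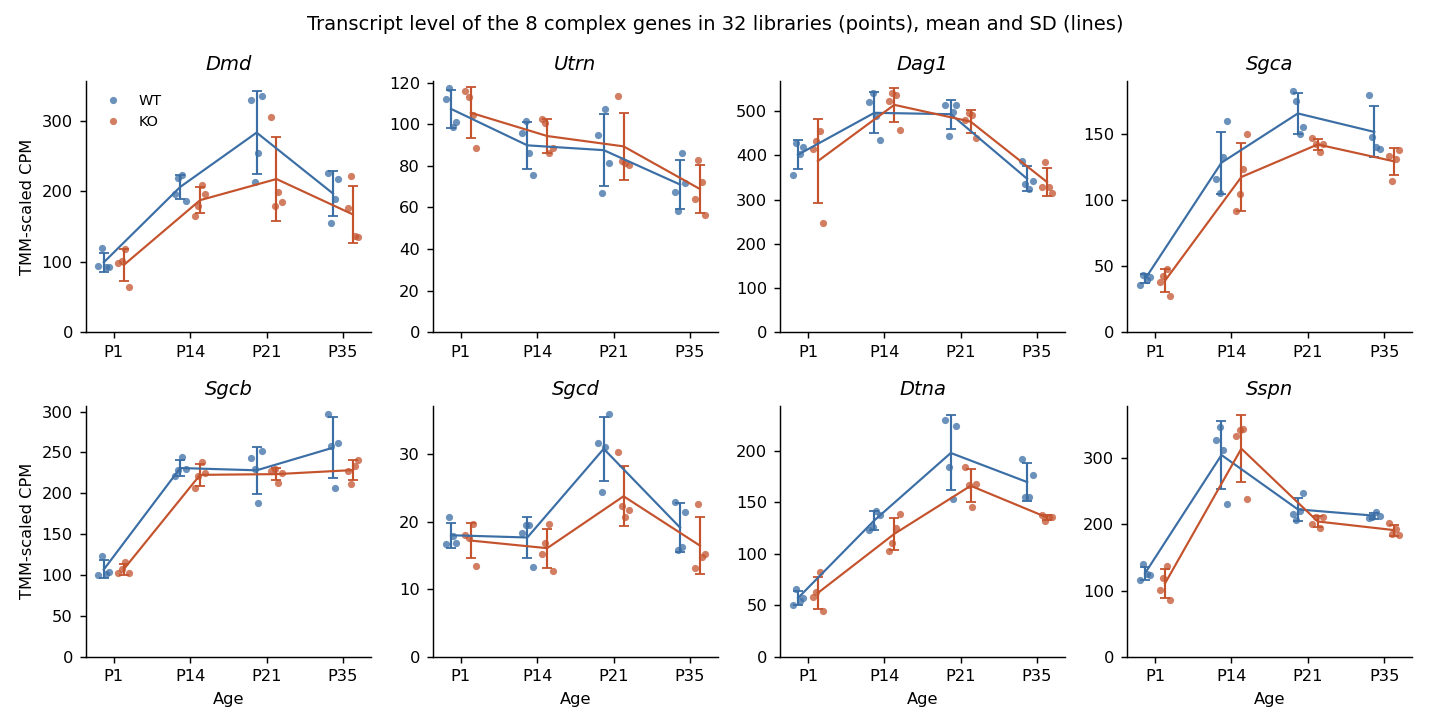
TMM-scaled CPM of the 8 members (y axes from 0) by age (x axes), with 1 point per library, and lines joining the means of WT and KO with SD bars (n=4). *Dmd*, *Sgca*, *Sgcb*, *Dtna* and *Sspn* are higher at P14 than at P1 in both genotypes, *Sgcd* is highest at P21 and *Sspn* at P14. KO libraries lie below all WT libraries for *Sgca* at P21 and for *Sgca*, *Dtna* and *Sspn* at P35, and overlap with them elsewhere.

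Counted together, 5 of 8 members (*Dmd*, *Sgca*, *Sgcb*, *Dtna* and *Sspn*) were called higher at P14 than at P1 in WT and the same 5 in KO, and 0 lower, against 24.2% of all 18583 genes called higher and 29.3% lower in WT and 24.5% and 29.2% in KO. The median log2 change of the 8 members was 1.08 in WT and 0.96 in KO, and of all genes -0.09 and -0.08. With library totals the median of all genes was -0.87 in WT and -0.81 in KO, and the members called were *Sgca* higher and *Utrn* and *Sgcd* lower in WT, and these with *Sspn* higher in KO. Relative to that median, *Dmd*, *Sgcb* and *Dtna* still lay above it, at 0.28, 0.33 and 0.43 in WT, as did *Sspn* at 0.51. Over the same step, the sum of mature fiber markers went from 24608 to 32154 CPM in WT at P1 to 139910 to 174740 CPM at P14, the immature fiber markers from 15970 to 20872 CPM down to 138 to 689 CPM, and the keratinocyte markers from 1020 to 3319 CPM down to 2.87 to 3.45 CPM. Their part in the members' changes was not tested.

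From P14 to P21, 1 member (*Sgcd*) was called higher in WT and 0 lower, against 3.04% and 3.80% of all genes. In KO 0 were called higher and 1 (*Sspn*) lower, against 4.06% and 5.11%. From P21 to P35, 0 were called higher and 1 (*Sgcd*) lower in WT, against 2.23% and 1.77%, and 0 in either direction in KO, against 3.24% and 3.10%. In KO from P21 to P35, 4 members reached an unadjusted *P*-value under 0.05, as did 7058 of 18583 genes, and 0 were called by DESeq2. Whether the KO effect itself differed between consecutive ages was tested as an interaction, and 0 of 8 members passed from P1 to P14, from P14 to P21 or from P21 to P35, against 0.0161%, 0.425% and 0.463% of all genes. None of the 8 reached an unadjusted *P*-value under 0.05 in any of these 3 edgeR tests, where 1200, 2398 and 3241 genes did, and DESeq2 also passed 0. Over the intervals of these interactions the lowest bound was -0.78, for *Dmd* from P14 to P21, and the highest 0.68, for *Dmd* from P21 to P35.

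Levels were compared between genes per kilobase of merged exons. At P1 in WT, *Dag1* led at 63.2 ± 5.15 CPM per kb, well above *Sgcb* (26.4 ± 2.73), *Sspn* (25.3 ± 1.99) and *Sgca* (23.3 ± 1.98), whose libraries overlapped from each gene to the next. *Utrn* (6.28 ± 0.53) stood above *Dmd* (4.17 ± 0.56) and *Dtna* (3.37 ± 0.39), and *Sgcd* was the lowest (2.18 ± 0.22). By P35 *Sgca* (87.6 ± 11.1) had passed *Sgcb* (63.1 ± 9.18) and *Dag1* (54.6 ± 4.45), and *Dmd* (8.26 ± 1.33) had passed *Utrn* (4.15 ± 0.68). The libraries of *Sgcb* and *Dag1* overlapped at P35, as did those of *Dtna* (10.03 ± 1.07) and *Dmd*.

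Within the sarcoglycan subcomplex, whose proteins assemble together, the length-scaled level of *Sgcd* was thus far below those of *Sgca* and *Sgcb* at every age. The order in KO was like that in WT, apart from neighbors within an SD of each other: at P1 *Sgca* (22.5 ± 5.09) and *Sspn* (22.2 ± 4.52) changed places, and at P21 so did *Dtna* (9.82 ± 0.95) and *Dmd* (9.13 ± 2.50). The choice of length matters most for *Dtna*, whose merged exons span 16930 bases and longest transcript 6295. Scaled by the longest transcript, *Dtna* in WT at P1 stood at 9.08 CPM per kb, above *Utrn* (8.68) and *Dmd* (6.65).

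**Figure D4:**
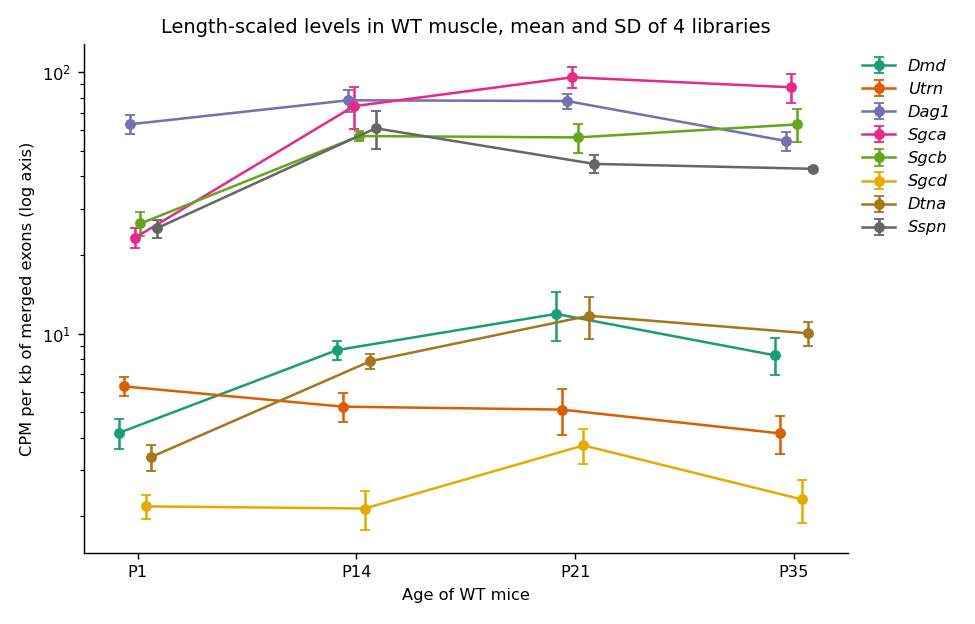
CPM per kilobase of merged exons (y axis, log scale) of the 8 members in WT muscle by age (x axis), as mean and SD of 4 libraries. *Dag1*, *Sgca*, *Sgcb* and *Sspn* form an upper band from 23.3 to 95.6, and *Dmd*, *Dtna*, *Utrn* and *Sgcd* a lower band from 2.14 to 11.9, in which *Dmd* and *Utrn* change places between P1 and P14.

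The proteins around the complex were read from 3 further lists. Of 12 other subunits and cytoplasmic partners, 10 were tested at P35, and 2 were called higher and 1 lower in KO, against 16% of all genes called in either direction. *Nos1* encodes neuronal nitric oxide synthase, which is held at the membrane through dystrophin. It held 85.5, 84.2, 111 and 130 CPM in WT, beside 17.5, 21.8, 15.7 and 29.5 CPM in KO at P35 (log2 -2.26, SE 0.22, edgeR adjusted *P*=1.31e-04), with no overlap and adjusted *P* up to 5.80e-04 without any 1 library.

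*Nos1* had risen from P14 to P21 in both genotypes (log2 1.95 in WT and 1.65 in KO, adjusted *P*=2.70e-06 and 2.45e-05). From P21 to P35 it fell in KO (-1.54, adjusted *P*=6.87e-05), with 0.16 in WT (adjusted *P*=0.699), and the difference between genotypes in this step passed as an interaction (-1.70, SE 0.35, adjusted *P*=0.00857). With library totals the P35 difference was -1.86. At P21 the log2 fold change was -0.57 (adjusted *P*=0.171), with 104, 114, 96.5 and 53.2 CPM in WT, beside 94.6, 56.4, 53.4 and 41.2 CPM in KO.

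The partners called higher were both membrane proteins of the fiber. *Cav3*, the gene of the muscle caveolin, held 69.3, 70.9, 65.4 and 69.6 CPM in WT, beside 111, 112, 111 and 129 CPM in KO at P35 (log2 0.77, SE 0.07, adjusted *P*=1.18e-04). *Trim72*, which encodes the membrane repair protein MG53, held 325, 307, 252 and 301 CPM in WT, beside 451, 520, 513 and 529 CPM in KO (log2 0.79, SE 0.10, adjusted *P*=3.44e-04). At P21 *Trim72* was called as well (0.62, adjusted *P*=0.00922), but not without any of 7 of the 8 libraries (every one except KO replicate 1), with adjusted *P* up to 0.0267, nor with RLE size factors (adjusted *P*=0.0105).

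The other 7 tested partners were not called at P35. Among them *Sgce*, the gene of epsilon-sarcoglycan, gave 0.32 (adjusted *P*=0.0445). The median of the list was -0.02, and of all genes 0.04. In WT from P1 to P14, 2 of these partners were called higher and 5 lower, against 24.2% and 29.3% of all genes. *Sgce* (-0.97) and *Dtnb*, the gene of beta-dystrobrevin (-1.71), were called lower where *Sgca* and *Dtna* were called higher. The age steps of the partners were not refitted with library totals.

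Among 10 ligands of dystroglycan and their laminin partners, 9 were tested at P35. Of these, 1 was called higher and 1 lower, against 16% of all genes called in either direction. *Bgn*, which encodes the small proteoglycan biglycan, held 132, 158, 156 and 187 CPM in WT, beside 226, 367, 269 and 246 CPM in KO (log2 0.83, SE 0.16, adjusted *P*=0.00312). It was also called at P21 (0.94, adjusted *P*=0.00438). Single libraries decided both calls, at P35 WT replicates 1, 2 and 3 (adjusted *P* up to 0.0106) and at P21 KO replicates 2, 3 and 4 and WT replicates 2 and 4 (adjusted *P* up to 0.0149).

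*Lama5*, the gene of a laminin alpha chain of basement membranes, held 37.6, 34.2, 48.9 and 43.0 CPM in WT, beside 29.6, 25.3, 24.5 and 24.2 CPM in KO at P35 (log2 -0.64, SE 0.12, adjusted *P*=0.00262). It came short of 1.5-fold without WT replicate 3 (-0.54) and was not called with library totals (-0.24, adjusted *P*=0.124). *Lama2*, the main laminin alpha chain of the muscle fiber, gave -0.10 (adjusted *P*=0.608). The sum of endothelial markers was 293 to 552 CPM in WT and 255 to 322 CPM in KO at P35, and its part in the change of *Lama5* was not tested.

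Of the 18 enzymes that build the sugar chain of alpha-dystroglycan or its donors, 17 were tested at P35. Of these, 0 were called, against 16% of all genes. Without the fold, *Dpm2* (0.49, adjusted *P*=0.00455) passed in the higher direction and *Pomt1* (-0.41, adjusted *P*=0.00463) in the lower. The share of all genes that passed without the fold was 24.5%. In WT from P1 to P14, 9 of the 18 were called higher and 1 lower, against 24.2% and 29.3% of all genes, with a median log2 change of 0.57 beside -0.09 for all genes. The age steps of the partner, ligand and enzyme lists were not refitted with library totals. That scaling moved the median of all genes from P1 to P14 in WT to -0.87. No gene of these lists was called by edgeR between genotypes at P1 or P14, against 0.0442% and 0.0318% of all genes.

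**Figure D5:**
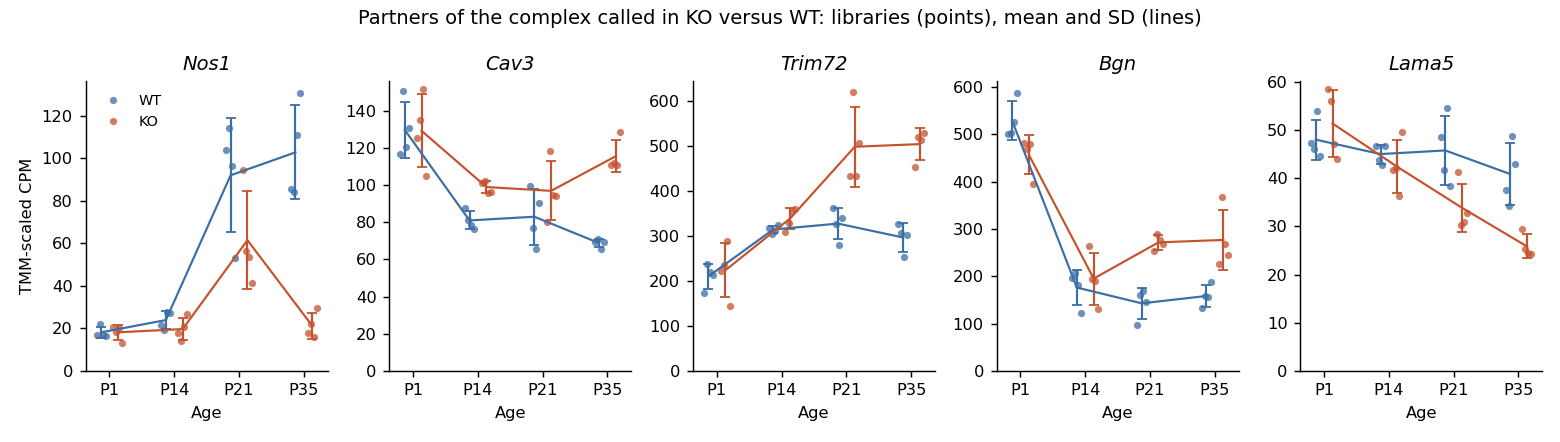
TMM-scaled CPM (y axes from 0) of the 5 partner and ligand genes called in KO versus WT, by age (x axes), with 1 point per library, and lines joining the means with SD bars (n=4). At P35 the 4 KO libraries lie below all WT libraries for *Nos1* and *Lama5* and above them for *Cav3*, *Trim72* and *Bgn*.

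The genes most like each member over the 32 libraries were found by Pearson's *r* of log2 CPM among 18583 genes, as a description in which age, genotype and library composition are shared. *Sgca* was most like *Atp2a1* (*r*=0.991), the calcium pump of fast fibers, *Nudcd3* (*r*=0.990) and *Hrc* (*r*=0.990), a calcium-binding protein of the sarcoplasmic reticulum. *Dmd* was most like *Eea1* (*r*=0.971), *Neb* (*r*=0.959), the gene of the giant thin-filament protein nebulin, and *Speg* (*r*=0.955). *Utrn* was most like *Tmem131* (*r*=0.906), *Trrap* (*r*=0.9005) and *Ep400* (*r*=0.891).

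For the remaining members the highest values were 0.894 for *Dag1* (with *Xpnpep1*), 0.991 for *Sgcb* (*Ube2l3*), 0.851 for *Sgcd* (*Slc9a7*), 0.981 for *Dtna* (*Kpna6*) and 0.947 for *Sspn* (*D830013O20Rik*). No member was among the 3 genes most like another member.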

How the data were processed

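RNA-seq libraries of WT and *Mtm1* KO muscle (8 groups, n=4) were grouped by GEO's labels. The authors deposited RSEM expected counts per gene, and the submitters' processing notes name STAR (2.6.1), RSEM (1.2.22), DESeq2 and GRCm38. Gene counts pool isoforms. Values that were not whole (4.26%) were rounded. Totals of 49321019 to 85631391 counts per library left counting error small beside the spread between libraries.

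Symbols and lengths came from GENCODE M21, and promoter windows from RefSeq. edgeR (4.0.16, R 4.3.3) was run with filterByExpr, TMM and quasi-likelihood tests, on 8 libraries per age for genotype and on all 32 for age steps and interactions, and *P*-values were adjusted by Benjamini-Hochberg over every gene in the fit. A call needed an adjusted *P*-value under 0.01 and a fold over 1.5. The *Utrn* to *Dmd* ratio was compared by an exact permutation test in Python (3.11.15). The fits were tested on simulated data with changes larger than any difference of the members between genotypes. Power at the sizes seen for the members was thus not tested. The members and lists were chosen with earlier results of these data known. Named were all members, *Mtm1*, up to 3 called genes per list and age by adjusted *P*-value, and genes from the 3 most like each member. All 3 like genes are named for *Dmd*, *Utrn* and *Sgca*, and the first alone for the other members. *Sgce*, *Dtnb*, *Lama2*, *Dpm2* and *Pomt1* were chosen after their values were seen. Some genes of the lists are not reported here by name. Same-numbered WT and KO libraries deviated together at P14 (*r* of 0.252, 0.29, 0.19 and 0.588 across genes) and were treated as pairs at that age alone. The labels state no pairing, and differently numbered libraries were not compared in this way, so the pairing is an assumption. Printed fits are unpaired unless a pairing or block is named. Alternatives were DESeq2 (1.42.0), RLE size factors, library totals, no filter, other sample sets, a replicate block and leaving out each library.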

Additional observations from a re-analysis of the deposited data

Results flagged for a closer look

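In 5 of the 64 groups of 4 libraries screened for the 8 members, 1 library lay far from the other 3, where chance flags about 1 group in 20. They were *Dmd* in WT P1 replicate 2 (119 CPM), *Sgcb* in the same library (123 CPM), *Dmd* in KO P21 replicate 1 (305 CPM), *Utrn* in the same library (113 CPM), and *Sspn* in KO P14 replicate 4 (238 CPM). For *Nos1* the difference between genotypes at P35 was not that at P21, by an edgeR interaction term (log2 -1.70, adjusted *P*=0.00857), and this interaction was not recomputed under the alternatives.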

How the results depend on the processing

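No member was called between genotypes under any alternative, including each fit without 1 library. At P35 the number of members that passed at any fold went from 0 to 2 with library totals (*Dag1* and *Sspn*, higher), to 1 with DESeq2 and to 1 at an adjusted *P*-value under 0.05 (*Dtna*, lower, in both). From P1 to P14 in WT, 3 members were called with library totals. From P14 to P21 in WT, 2 were called with RLE size factors, 2 with no filter and 2 with DESeq2 (*Sgcd* and *Dtna*), and 1 to 2 without single libraries, while library totals left the count at 1 but lost *Sgcd* and gained *Sspn*. From P21 to P35 in WT, 0 were called from the libraries of those ages alone, and 0 to 1 without single libraries. In KO, 0 to 1 were called without single libraries from P14 to P21 and from P21 to P35. A replicate block changed no member's call, and *Dtna* at P35 gave -0.30 with it (adjusted *P*=0.0374).

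Library totals turned the sign of *Utrn* at P1 (0.016), *Sgcb* at P14 (0.029), *Dag1*, *Sgcb* and *Sspn* at P21 (0.15, 0.18 and 0.075), and at P35 *Dmd* (0.20), *Utrn* (0.39), *Dag1* (0.40), *Sgca* (0.20), *Sgcb* (0.27), *Sgcd* (0.22), *Dtna* (0.10) and *Sspn* (0.27). They also turned the age steps of *Dag1* from P1 to P14 (-0.46 in WT and -0.31 in KO), of *Sgcb* from P14 to P21 in KO (-0.046), and of *Sgca* and *Sspn* from P21 to P35 in KO (0.014 and 0.058). Other turns were of values near 0. With no filter they were *Dag1* at P35 (0.00415), *Dag1* from P14 to P21 in WT (0.0004498) and *Sgcb* in that step in KO (-0.022). For *Dag1* and *Sgcb* from P14 to P21 in WT they were 0.01129 and 0.002519 with RLE size factors and 0.01072 and 0.001997 with DESeq2, and for *Sgcb* in KO -0.009925 from those ages alone. The cause was not tested.

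Without single libraries the genotype difference at P1 ranged from -0.169 to 0.105 for *Dmd*, -0.0618 to 0.063 for *Utrn*, -0.13 to 0.125 for *Dag1*, -0.157 to 0.1 for *Sgca*, -0.031 to 0.0822 for *Sgcb*, -0.128 to 0.0489 for *Sgcd*, -0.0415 to 0.263 for *Dtna* and -0.0433 to 0.17 for the log2 ratio of *Utrn* to *Dmd*. At P14 it ranged from -0.00692 to 0.135 for *Utrn*, -0.0116 to 0.0977 for *Dag1* and -0.0708 to 0.151 for *Sspn*, at P21 from -0.0897 to 0.143 for *Utrn* and -0.111 to 0.0313 for *Sgcb*, and at P35 from -0.129 to 0.0835 for *Utrn* and -0.08 to 0.0481 for *Dag1*. From P1 to P14 in WT *Sgcd* ranged from -0.0776 to 0.0907. From P14 to P21 in WT *Utrn* ranged from -0.151 to 0.0701, *Dag1* from -0.0699 to 0.036 and *Sgcb* from -0.0686 to 0.0649, and *Sgcb* in KO from -0.0297 to 0.0412.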

Other observations

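Several cell type markers were called between genotypes by edgeR, against 4.67% of all genes at P21 and 16% at P35. All 4 markers of immature or regenerating fibers were called higher in KO at P35, with a median log2 fold change of 2.13, and *Myog* and *Ncam1* at P21. Of 3 adipocyte markers, *Adipoq* and *Plin1* were called higher at P35, and 1 of 4 macrophage markers, *Cd68*, was called higher at P21 and P35. The summed macrophage markers overlapped at P35, at 45.1 to 55.0 CPM in WT and 42.8 to 60.2 CPM in KO. *Pax7*, a transcription factor of muscle stem cells and 1 of 3 satellite cell markers, was called lower at P21 and P35. At P35 the endothelial *Cdh5* and *Tek* (2 of 4 markers) were called lower. So were *Rgs5*, 1 of 4 smooth muscle and pericyte markers (median log2 fold change -0.01), and *Acta1*, 1 of 8 mature fiber markers. None of these 4 genes was called with library totals (log2 -0.49, -0.25, -0.22 and -0.35 in that order). Calls lost when 1 of the 8 libraries was left out were, at P21, those of *Myog* and *Pax7* (2 libraries each) and *Cd68* (6), and at P35 those of *Plin1* (2), *Rgs5* (4), *Cdh5* and *Acta1* (6 each) and *Tek* (7).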
